A study of Oreochromis niloticus with 12 samples.

Results

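The genes described here encode the initiation and elongation factors of translation in fast (white) skeletal muscle of Nile tilapia, Oreochromis niloticus. They were taken by a rule on names, set with earlier results of these data known. Every gene in the count files whose NCBI symbol starts with eif or eef was included, except eef2k, which the rule leaves out. The rule gave 64 genes of the 42609 counted, and it brought in the eIF4E-binding proteins, the eIF2 alpha kinases and the methyltransferases that act on elongation factors. Of the 42609 genes, 25009 carry only a locus number in the annotation, and a factor gene among these would not be found by the rule. Counts high enough for a test were present in 42 of the 64 genes.

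The libraries came from 6 wild females and 6 females of the first generation under domestication, all 5 months old and all sampled for fast muscle. No other treatment, strain or allele is named for either group. Each domesticated fish was matched to a wild progenitor and shares its number, so the libraries are W53, W63, W66, W68, W70 and W72 (wild) and D53, D63, D66, D68, D70 and D72 (domesticated). RNA was depleted of ribosomal RNA and the 12 libraries were sequenced on 1 lane.

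Translation starts when eIF2 brings the initiator transfer RNA to the small ribosomal subunit with eIF1, eIF1A and the large eIF3 complex, while eIF4E binds the cap of the messenger RNA and is joined by the scaffold eIF4G and the helicase eIF4A. After each round eIF2 is reloaded with GTP by eIF2B, and phosphorylation of the alpha subunit of eIF2 by stress kinases turns eIF2 into an inhibitor of eIF2B. The eIF4E-binding proteins hold eIF4E away from eIF4G until the kinase mTORC1 phosphorylates them. In elongation eEF1A delivers each aminoacyl transfer RNA, the eEF1B subunits reload eEF1A, and eEF2 moves the ribosome along by 1 codon. Skeletal muscle is known for tying its protein synthesis to feeding, activity and growth through these control points.

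Gene counts per library ranged from 3395622 to 8478988, and the 64 genes held 0.469% to 1.54% of them. Levels are given in CPM, the usual unit that sets a count against a standard library size, with each library total scaled by TMM (trimmed mean of M values), whose factors ran from 0.614 to 1.81. Summed levels of the fast muscle fibre markers (9 of 16 listed were found, mybpc2a without a count) lay between 54258 and 297279 CPM. Those of slow fibre markers (6 of 8 found, 1 tested, tnnt1 without a count) were at 19.2 CPM or lower. The erythrocyte markers tested were all higher in domesticated fish (3 of 3, summed level 104 to 602 CPM in wild and 333 to 1106 CPM in domesticated libraries, slc4a1a without a count), as were 1 of 4 fibroblast markers (280 to 7481 against 4120 to 23422 CPM, col1a1a without a count) and 1 of 1 adipocyte marker (28.5 to 67.8 against 66.8 to 192 CPM). No leukocyte (0 of 3, 935 to 2662 against 1332 to 4617 CPM, spi1b without a count) or endothelial marker (0 of 2, 46.0 to 75.2 against 32.6 to 86.2 CPM) was called. Of the listed markers, 3 of 8 for erythrocytes, 4 of 8 for fibroblasts and 1 of 5 for adipocytes were tested. For leukocytes these were 3 of 8, and for endothelium 2 of 6. Among all genes tested 6.69% were called higher. The part of these other cells in the results below was not tested, and in bulk muscle fewer cells of a type and less RNA per cell cannot be told apart.

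In the main fit, which had no block for the pair, 6 of the 42 factor genes (14.3%) were called higher in domesticated fish and none lower. Among all genes tested 13.2% were called, 6.69% higher and 6.5% lower. The 6 were the cap-binding genes eif4e1c and eif4eb, the eIF2 beta subunit gene eif2s2, the eIF2B delta subunit gene eif2b4, and the elongation factor methyltransferase genes eef1akmt2 and eef1akmt3. Their levels were between 1.72-fold and 2.56-fold those of wild fish. These folds, and those below, are limma's, taken from the group means of log2 CPM, and differ somewhat from the ratios of the mean CPM values printed beside them. The tested genes for eIF3, eIF4A, eIF4G, eEF1 and eEF2 stayed short of the threshold in the main fit. With the pair as a block, eif2s2 lost its call and eif4g2a was called lower, which gave 5 higher and 1 lower.

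A gene was called when its adjusted p was under 0.05 in limma's moderated test (Benjamini-Hochberg adjustment over the 8425 genes tested). The share of called factor genes, 14.3%, lay close to the share among all genes tested, 13.2% (1112 genes). Among all genes 6.69% were called higher and 6.5% lower, and the factor genes gave 6 and 0. This split by direction rests on 6 calls and was not tested. At an unadjusted p under 0.05 they gave 9 higher and 1 lower (10 of 42, against 29.9% of all genes), where all genes gave 14.5% higher and 15.4% lower. The median log2 fold change of the 42 genes was 0.04, with 22 above and 20 below 0, and that of all genes tested was −0.02. The split of 6 and 0 moved with the libraries used, and with the pair as a block it was 5 and 1. When W68, W70, D70 or D72 was left out, 2 of the 42 factor genes were called, each higher. Among all genes tested the calls were then 831 of 8718, 696 of 8587, 628 of 9009 and 648 of 8781, in that order. When D53 was left out, 6 factor genes were called higher and 2 lower (6.94% and 7.41% of all genes). Without scaling factors, that is with plain library totals, no factor gene was called (2 higher and 9 lower at an unadjusted p under 0.05), and calls among all genes became 87 higher and 593 lower around a median log2 fold change of −0.42. The 6 genes named above kept log2 fold changes of 0.38 to 0.95 there. The direction of change is therefore given relative to the bulk of genes, as TMM sets it.

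**Figure D1:**
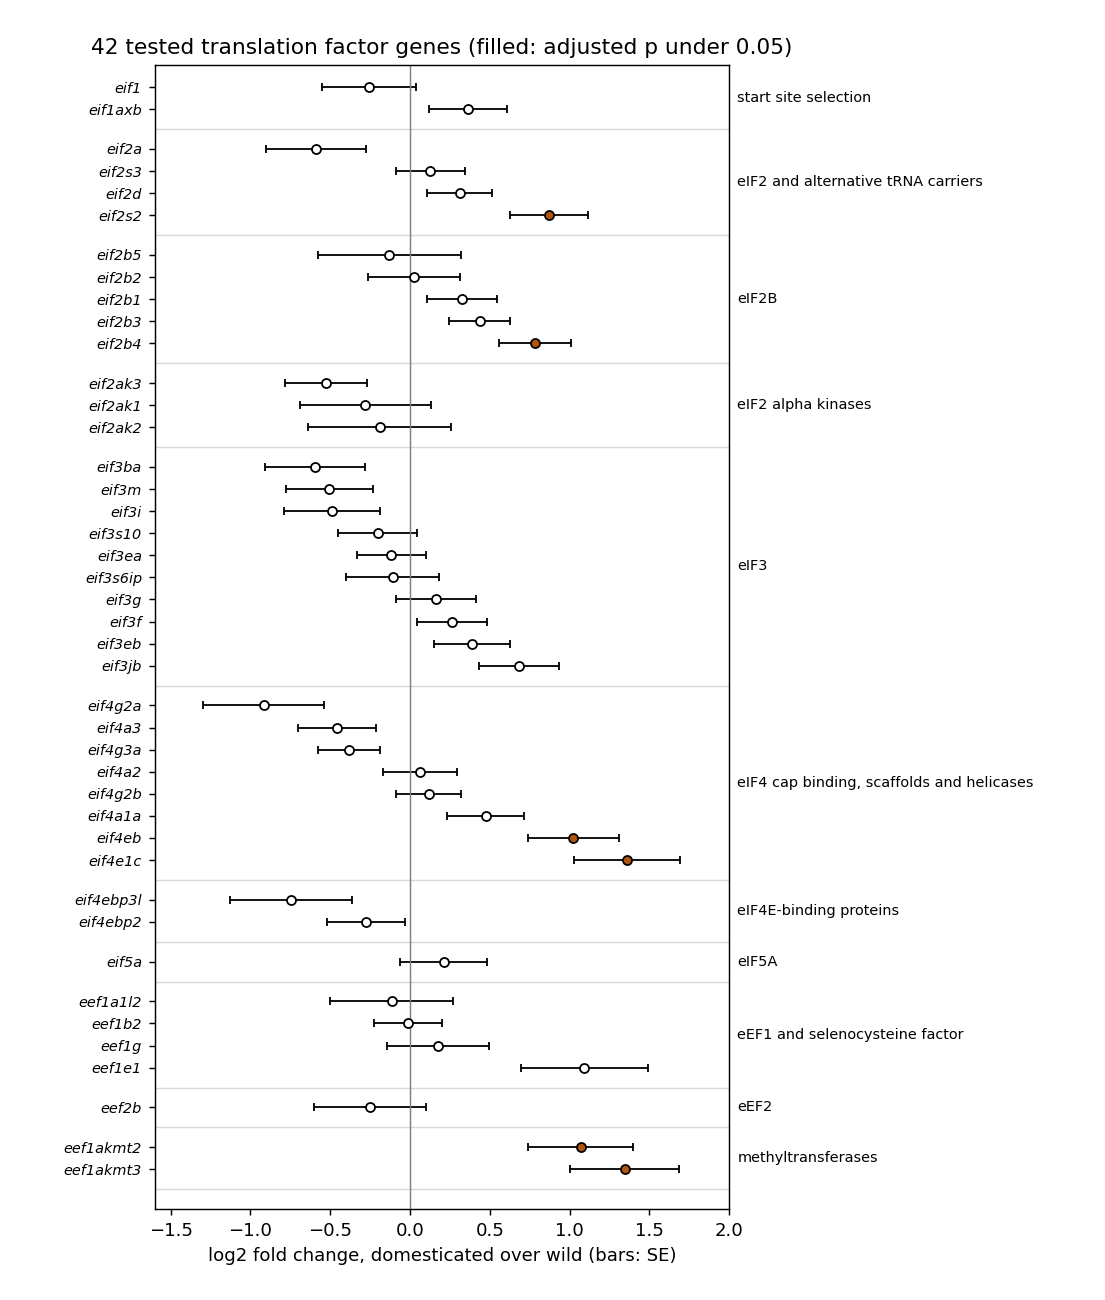
Log2 fold change, domesticated over wild (x axis), of the 42 tested factor genes (y axis), grouped by complex, with bars of 1 SE from limma over 6 wild and 6 domesticated libraries; filled points passed the adjusted p of 0.05. The 6 filled points lie between 0.78 and 1.36, and no point at negative values is filled.

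Among genes of the cap-binding group, eif4e1c had the largest fold change of the 42 genes. It encodes a form of the cap-binding protein eIF4E. Its level in wild libraries ran from 7.09 to 16.2 CPM with a median of 9.11 CPM, and in domesticated libraries from 10.1 to 43.7 CPM with a median of 28.6 CPM. D53, at 10.1 CPM, was the only domesticated library inside the wild range, and D68, D70 and D72 were all above 36 CPM. The wild mean of 9.99 ± 3.17 CPM stood against a domesticated mean of 27.8 ± 13 CPM (SD, n = 6 each), with a limma fold of 2.56 (log2 1.36, SE 0.33, limma adjusted p = 0.0173), and the level was higher in domesticated fish in 6 of 6 pairs. The call held in each of the 12 fits that left out 1 library.

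The other cap-binding gene with enough counts, eif4eb, also rose. It lay between 9.13 and 19.5 CPM in wild libraries (median 13.7 CPM) and between 14.7 and 50.2 CPM in domesticated libraries (median 27.5 CPM). Again D53 alone fell inside the wild range, and D70 was highest. The means were 13.7 ± 3.79 and 29.1 ± 12.3 CPM, with a limma fold of 2.03 (log2 1.02, SE 0.29, adjusted p = 0.0302), with 5 of 6 pairs higher. The call was lost without W68, W70, D68, D70 or D72, where the adjusted p rose to between 0.0605 and 0.0660. Of the remaining eIF4E genes, eif4e2 had 1 count over all libraries, and eif4e2rs1, named as related to it, had none.

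The proteins that hold eIF4E back showed a different picture, and neither tested gene was called. The level of eif4ebp3l spread from 84.5 to 262 CPM in wild libraries (median 140 CPM) and from 53 to 279 CPM in domesticated libraries (median 77.2 CPM). The domesticated extreme was D53, and the other 5 domesticated libraries reached at most 105 CPM. With all 12 libraries the gene had a log2 fold change of −0.75 (SE 0.38, adjusted p = 0.205). Without D53 it was −1.06 and the gene was called (adjusted p = 0.0300), as it was with both libraries of pair 53 left out (−1.12, adjusted p = 0.0338). For eif4ebp2, D53 again stood alone among domesticated libraries at 52.4 CPM, and the log2 fold change was −0.28 (adjusted p = 0.476). The genes eif4ebp1 (no count) and eif4enif1 (2 counts), which encodes an eIF4E transporter, could not be tested.

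**Figure D2:**
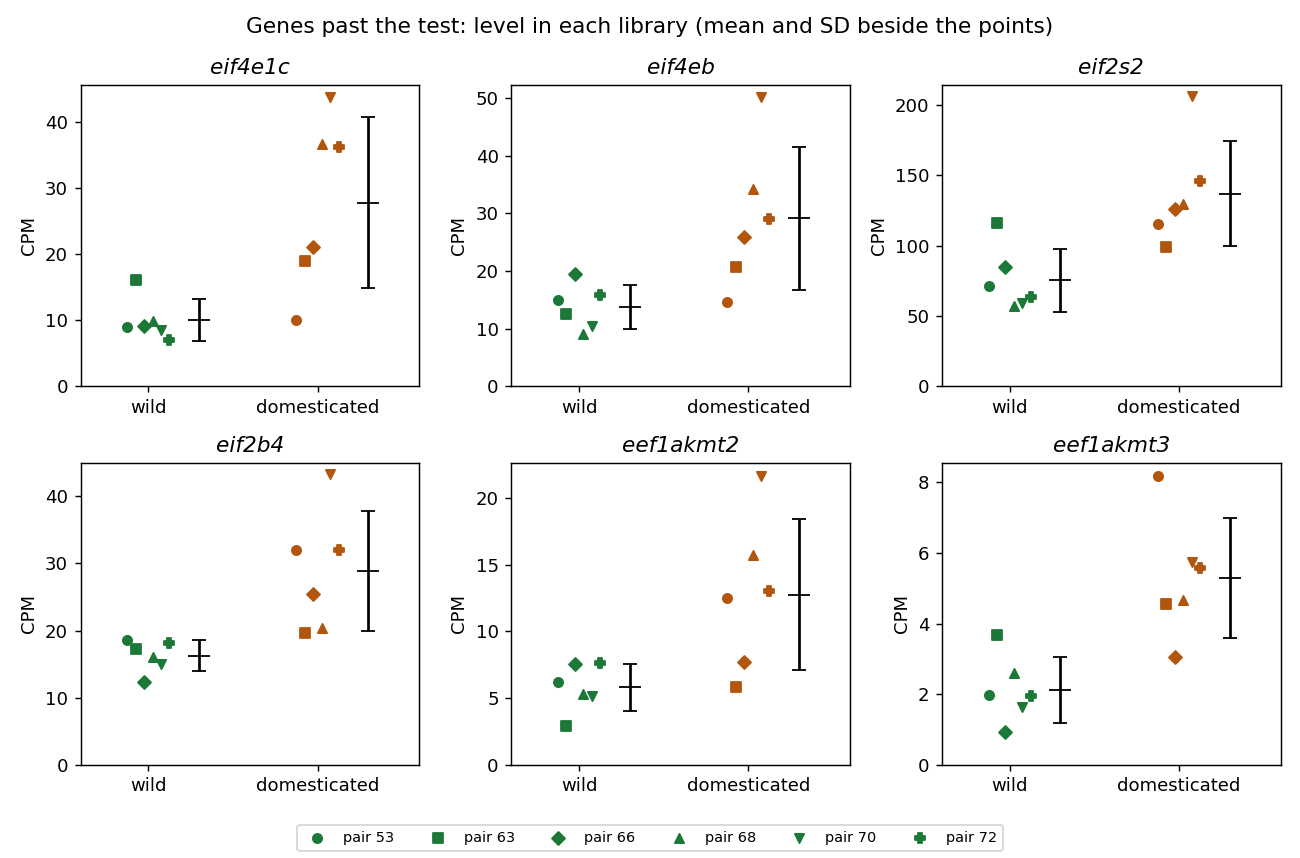
CPM in each library (y axis, linear from 0) of the 6 called genes in wild and domesticated fish, with the shape of a point marking the pair and the mean and SD of each group drawn beside the points (n = 6). Domesticated libraries of eif2b4 all lie above the wild range. D53 falls inside that range for eif4e1c and eif4eb, D53 and D63 for eif2s2, D63 for eef1akmt2 and D66 for eef1akmt3.

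None of the eIF4G scaffold or eIF4A helicase genes was called. Of the 6 tested, eif4g2a, for a scaffold that lacks the eIF4E site, had the lowest fold change of all 42 factor genes; like eif2a, eif3jb and eef1e1 below, it was singled out after its values were seen. It ran from 73.8 to 291 CPM in wild libraries (median 158 CPM) and from 45.9 to 153 CPM in domesticated libraries (median 60.6 CPM). The level was lower in domesticated fish in 6 of 6 pairs although the groups overlapped. Its log2 fold change was −0.92 (SE 0.38, adjusted p = 0.119), and in the fit with the pair as a block the gene was called (adjusted p = 0.0317). Its duplicate eif4g2b had a log2 fold change of 0.12 (adjusted p = 0.744). The helicase gene eif4a2 lay between 153 and 216 CPM in wild libraries (median 192 CPM) and between 146 and 314 CPM in domesticated libraries (median 181 CPM), D53 being highest. Its log2 fold change of 0.06 (adjusted p = 0.889) turned to −0.06 without D53 and to −0.34 with plain library totals. The remaining log2 fold changes were 0.47 for eif4a1a, −0.46 for eif4a3, a helicase of the exon junction complex, and −0.38 for the scaffold gene eif4g3a, with adjusted p between 0.202 and 0.225. Too few counts remained for eif4g1a (none), eif4ba (3 in all) and eif4h (1 in all).

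The start site selection genes eif1 and eif1axb were not called. The level of eif1 ran from 186 to 625 CPM in wild libraries (median 283 CPM), with W53 at the top, and from 186 to 368 CPM in domesticated libraries (median 271 CPM). W53 and W72 lay above every domesticated library and the other 4 wild libraries among them, and the log2 fold change was −0.26 (adjusted p = 0.590). For eif1axb it was 0.36 (adjusted p = 0.344), and eif1ad had 7 counts in all.

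Of the eIF2 genes, eif2s2 for the beta subunit was called. Its level lay between 56.9 and 116 CPM in wild libraries (median 67.5 CPM) and between 99.1 and 206 CPM in domesticated libraries (median 128 CPM). D53 and D63 lay inside the wild range, whose top was W63. The means of 75.4 ± 22.3 and 137 ± 37.4 CPM went with a limma fold of 1.83 (log2 0.87, SE 0.24, adjusted p = 0.0311), with 5 of 6 pairs higher. The call was lost when the pair entered as a block (adjusted p = 0.0625) and without W68, W70, W72, D70 or D72, where the adjusted p lay between 0.0562 and 0.0742.

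The gamma subunit gene eif2s3 was not called. It ran from 124 to 230 CPM in wild libraries (median 187 CPM) and from 146 to 242 CPM in domesticated libraries (median 202 CPM). The log2 fold change of 0.13 (adjusted p = 0.742) became −0.28 with plain library totals. The alpha subunit gene eif2s1b, whose product the stress kinases phosphorylate, had 98 counts over all libraries and was not tested.

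Neither gene for the alternative carriers of initiator transfer RNA was called. The level of eif2a was lower in domesticated fish in 6 of 6 pairs, with 43.9 to 107 CPM in wild libraries (median 65.8 CPM) and 30.5 to 99.2 CPM in domesticated libraries (median 38.2 CPM). D53 was the highest domesticated library, and the other 5 reached at most 46.5 CPM. With all libraries the gene gave a log2 fold change of −0.59 (adjusted p = 0.223) and, without D53, −0.82 (adjusted p = 0.0480). For eif2d it was 0.31 (adjusted p = 0.332).

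All 5 subunits of eIF2B could be tested. The delta subunit gene eif2b4 was the only factor gene whose groups did not overlap, against 2.87% of all genes with every domesticated library above every wild one (2.14% the other way, where no factor gene stood). Wild libraries lay between 12.3 and 18.6 CPM (median 16.7 CPM) and domesticated libraries between 19.7 and 43.4 CPM (median 28.7 CPM). D70 was the highest of all 12 libraries, as it was for the called genes eif4e1c, eif4eb, eif2s2 and eef1akmt2. In all it was highest for 12 of the 42 factor genes (28.6%, against 7.39% of all genes). The means of 16.2 ± 2.34 and 28.8 ± 8.91 CPM went with a limma fold of 1.72 (log2 0.78, SE 0.22, adjusted p = 0.0323). The call was lost without W66, W68, W70, D70 or D72 (adjusted p between 0.0554 and 0.0752), with both libraries of pair 53 left out (0.0508), and with no filter on low counts (0.103).

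The other eIF2B subunits were not called. The gamma subunit gene eif2b3 was higher in domesticated fish in 6 of 6 pairs, with a log2 fold change of 0.44 (adjusted p = 0.143). The alpha and beta subunit genes eif2b1 and eif2b2 had log2 fold changes of 0.33 and 0.03. The epsilon subunit, encoded by eif2b5, carries out the exchange of GDP for GTP. In wild libraries eif2b5 ran from 21.9 to 101 CPM (median 43.5 CPM) and in domesticated libraries from 27.5 to 167 CPM (median 37.6 CPM). D53 held the highest value, W53 the next, and the domesticated group had a coefficient of variation of 94.6%, the widest of the 42 genes. The log2 fold change of −0.13 (adjusted p = 0.879) changed sign without W53, W72, D63 or D66 (0.08, 0.05, 0.04 and 0.02).

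The kinases that phosphorylate eIF2 alpha were not called, and all 3 tested lay below 0. The gene eif2ak3 encodes PERK, the kinase of the endoplasmic reticulum. Its level ran from 6.98 to 14.9 CPM in wild libraries (median 10.3 CPM) and from 4.36 to 9.76 CPM in domesticated libraries (median 7.12 CPM). It was lower in 5 of 6 pairs with overlapping groups, and the log2 fold change was −0.53 (SE 0.26, adjusted p = 0.185). The heme-sensitive kinase gene eif2ak1 (HRI, −0.28) and the kinase gene eif2ak2 (PKR, −0.19) had between 2 and 21 counts in a library. The amino acid sensor gene eif2ak4 (GCN2) had no count.

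None of the 10 tested eIF3 subunit genes was called, with 4 log2 fold changes above 0 and 6 below. They ran from −0.60 for eif3ba (subunit b) to 0.68 for eif3jb (subunit j, adjusted p = 0.0820), with a median of −0.11. The level of eif3ba lay between 166 and 483 CPM in wild libraries (median 302 CPM) and between 130 and 424 CPM in domesticated libraries (median 163 CPM). Domesticated fish were lower in 6 of 6 pairs, yet D53 stood within the wild range near its top, and the adjusted p was 0.223. The genes eif3i and eif3m, for subunits i and m, had log2 fold changes of −0.49 and −0.51, and again D53 was the highest domesticated library. The level of eif3jb lay between 42.5 and 93.9 CPM in wild libraries (median 62.1 CPM) and between 75.1 and 136 CPM in domesticated libraries (median 93.8 CPM), higher in 5 of 6 pairs. The remaining 6 genes, eif3s10, eif3ea, eif3eb, eif3f, eif3g and eif3s6ip, lay between −0.20 and 0.39. The genes eif3d and eif3k had no count.

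**Figure D3:**
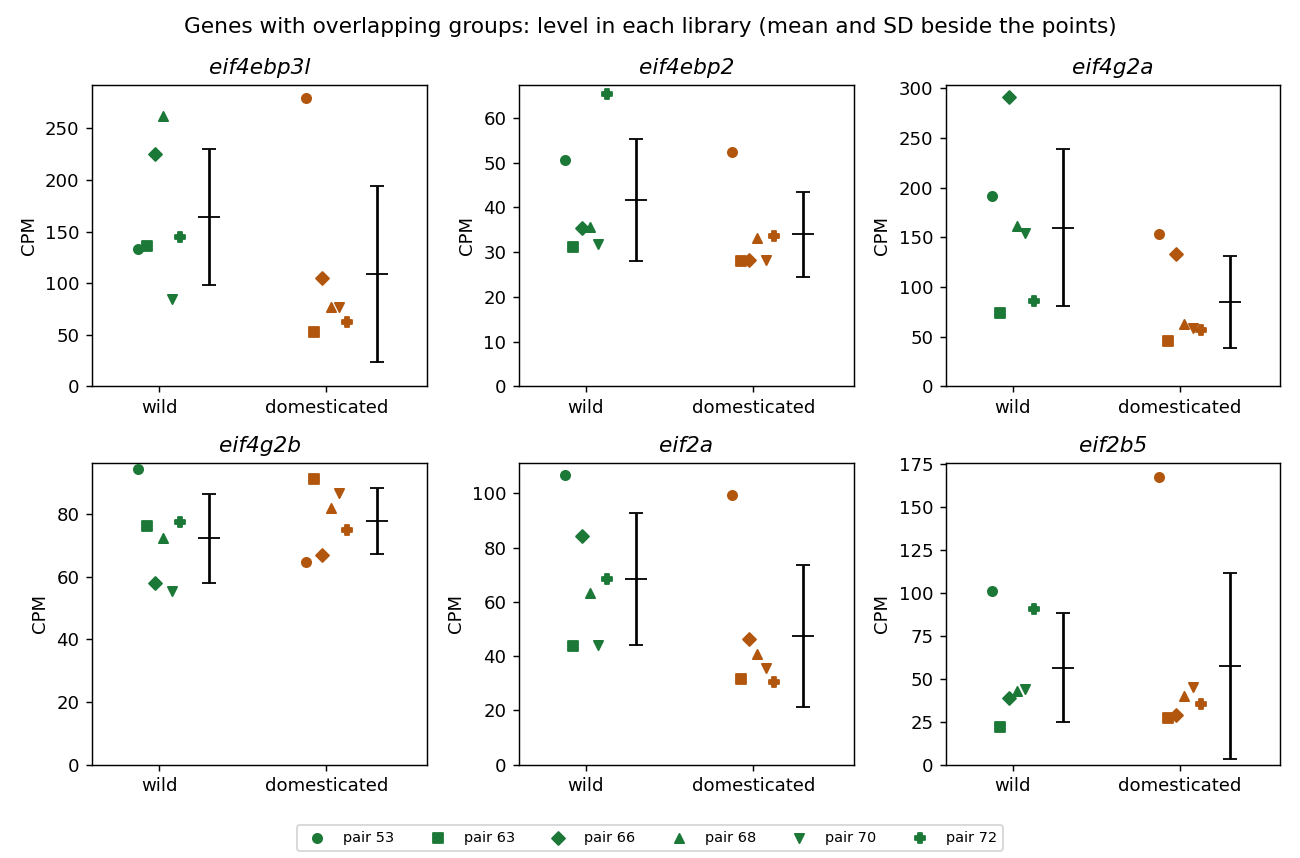
CPM in each library (y axis, linear from 0) of 6 genes that were not called, with the shape of a point marking the pair and the mean and SD of each group beside the points (n = 6). D53 is the highest domesticated library for eif4ebp3l, eif4ebp2, eif4g2a, eif2a and eif2b5, whereas for eif4g2b it is the lowest.

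The factors that join the ribosomal subunits could not be assessed. The genes eif5 (66 counts), eif5b (2 counts) and eif6 (7 counts) all stayed below the filter.

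The gene eif5a encodes the factor that carries hypusine and helps the ribosome past difficult stretches. Its level ran from 90.4 to 164 CPM in wild libraries (median 118 CPM) and from 97.1 to 245 CPM in domesticated libraries (median 123 CPM), with D68 highest. The difference was 0.21 on the log2 scale (adjusted p = 0.641), and −0.20 with plain library totals. Its relative eif5a2 had 28 counts.

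None of the elongation factor genes proper was called. The level of eef1a1l2, a gene for eEF1A, ran from 829 to 4936 CPM in wild libraries (median 1971 CPM) and from 1319 to 2880 CPM in domesticated libraries (median 1877 CPM). W53 was highest and W70 lowest of all 12 libraries, so the wild group enclosed the domesticated one. The log2 fold change of −0.12 (adjusted p = 0.875) became 0.14 without W53, 0.01 without W63 and 0.03 without D68. Likewise eef2b, for eEF2, had 601 to 2261 CPM in wild libraries (median 1496 CPM) and 783 to 2235 CPM in domesticated libraries (median 1066 CPM), and a log2 fold change of −0.25 (adjusted p = 0.676). The lowest library was again W70.

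The eEF1B subunit genes eef1b2 (nucleotide exchange) and eef1g (structural) had log2 fold changes of −0.01 and 0.18 and adjusted p of 0.976 and 0.755. The eef1b2 gene was the steadiest of the 42 in domesticated fish, with 335 ± 27.6 CPM and a coefficient of variation of 8.23%. In contrast eef1e1, whose product AIMP3 belongs to the complex of aminoacyl-tRNA synthetases, ran from 10.7 CPM in W70 to 79.9 CPM in W63 (wild median 35.3 CPM) and from 35.7 to 122 CPM in domesticated libraries (median 72.4 CPM). It was higher in 5 of 6 pairs with a log2 fold change of 1.09 (SE 0.40, adjusted p = 0.0805), and it was called without W63 (1.37, adjusted p = 0.0240) or without D53 (1.29, adjusted p = 0.0417). The eEF1B delta genes eef1da and eef1db had 25 and 4 counts, the second eEF1A gene eef1a1l3 had 114, and the selenocysteine factor gene eefsec had none.

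Both tested methyltransferase genes rose. In mammals these enzymes place methyl groups on lysines of eEF1A. The level of eef1akmt3 was low, from 0.919 to 3.67 CPM in wild libraries (median 1.96 CPM, 5 counts in the lowest) and from 3.05 to 8.18 CPM in domesticated libraries (median 5.12 CPM). D66 alone lay inside the wild range, whose top was W63, and D53 was highest. The means of 2.12 ± 0.93 and 5.29 ± 1.71 CPM went with a limma fold of 2.54 (log2 1.34, SE 0.34, adjusted p = 0.0205), with 6 of 6 pairs higher, and the call held in each of the 12 fits that left out 1 library.

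For eef1akmt2 the wild libraries lay between 2.94 and 7.64 CPM (median 5.76 CPM) and the domesticated libraries between 5.84 and 21.7 CPM (median 12.8 CPM). D63 was inside the wild range and D66, at 7.72 CPM, just above it, while 6 of 6 pairs were higher in domesticated fish. The means of 5.80 ± 1.76 and 12.8 ± 5.69 CPM went with a limma fold of 2.10 (log2 1.07, SE 0.33, adjusted p = 0.0431). This call stood near the threshold and was kept only without W72, D63 or D66; without any of the other 9 libraries the adjusted p lay between 0.0543 and 0.0967, and it was 0.0738 with both libraries of pair 53 left out and 0.0621 with no filter on low counts. The related genes eef1akmt1 (7 counts) and eef2kmt (no count) could not be tested.

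Over the 42 genes, 5 were higher in domesticated fish in all 6 pairs (eef1akmt2, eef1akmt3, eif2b3, eif2b4 and eif4e1c; 11.9%, against 8.8% of all genes) and 3 were lower in all 6 (eif2a, eif3ba and eif4g2a; 7.14%, against 9.1%). With the pair as a block, 6 factor genes were called, of which 5 were higher (against 6.01% of all genes) and eif4g2a was lower (against 6.6%). Without D53, 8 were called, 6 higher (against 6.94% of all genes) and 2 lower (eif2a and eif4ebp3l, against 7.41%). Without both libraries of pair 53, 5 were called, 4 higher (against 6.19%) and eif4ebp3l lower (against 7.03%).

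Part of the spread among the factor genes was shared within a library. Taking each gene relative to its mean over the 12 libraries, the median over the 42 genes was highest in D53 (log2 0.46) and W53 (0.28) and lowest in W70 (−0.48). The same median over all genes tested lay between −0.03 and 0.04. TMM scaling holds that median near 0 in every library, so it does not show how far a set of 42 genes commonly strays. D53 held the highest value for 12 of the 42 genes (28.6%, against 13% of all genes), W53 for 10 (23.8%, against 12.8%) and D70 for 12 (28.6%, against 7.39%), and W70 held the lowest for 15 (35.7%, against 9.89%). W70 also had the largest share of reads outside annotated features, 19.4%, and the part of this in its values was not tested. With the group means removed, the eIF3 subunit genes moved together across the 12 libraries, with a median pairwise correlation of 0.70 over 45 gene pairs. Dropping pair 53 afterwards, without taking the group means again, gave 0.61. Over all 12 libraries the median was 0.48 for the 5 eIF2B genes, 0.28 for all 42 genes and −0.003 for 2000 genes drawn from all tested. These correlations are descriptions, and all genes of a library share its scaling factor.

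**Figure D4:**
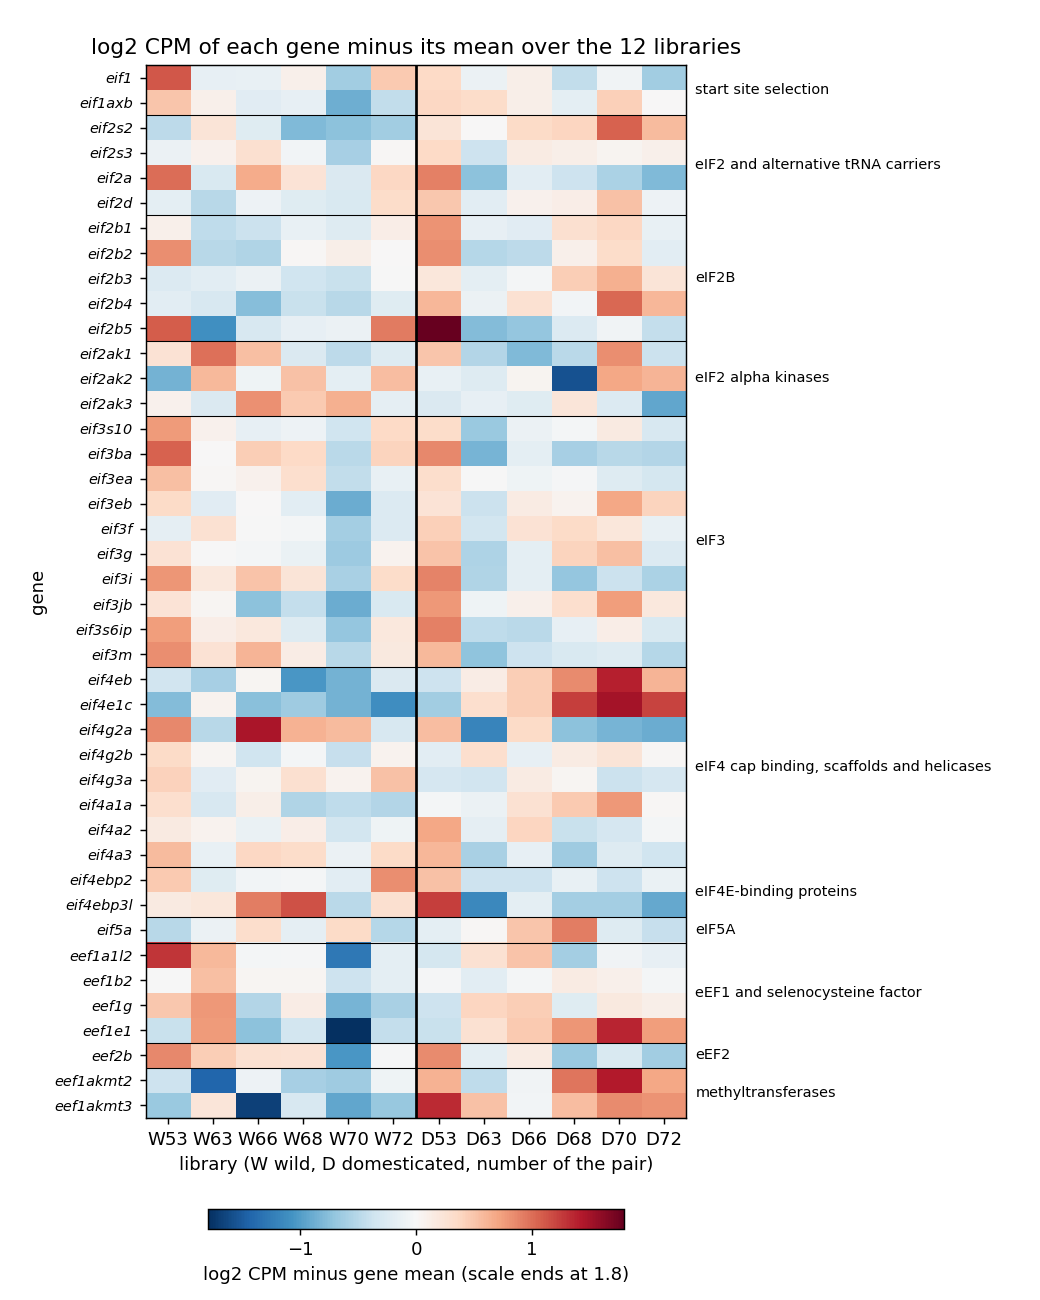
Log2 CPM of each of the 42 tested genes minus its mean over the 12 libraries (colour scale, blue below and red above the mean), with genes by complex in rows and libraries in columns, wild to the left of the black line. D53 and W53 are red and W70 blue across most eIF3 genes, and eif4eb and eif4e1c are reddest in D70.

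Ratios of related genes within a library need no scaling between libraries, and 12 such ratios were compared between the groups with a two-sided exact permutation test over the 924 splits. No ratio passed an adjusted p of 0.05 over the 12 comparisons, and 4 had an unadjusted p under 0.05. The log2 ratio of eif4a1a over eif4a3 was 0.20 ± 0.32 in wild and 1.13 ± 0.62 in domesticated fish (SD, n = 6 each), a difference of 0.93 (exact p = 0.0108, adjusted p = 0.0649). In D53 it was 0.03, inside the wild range. That of eif4a2 over eif4a3 was 0.54 ± 0.25 and 1.06 ± 0.21, higher in 6 of 6 pairs (exact p = 0.00649, adjusted p = 0.0649). The ratios of eif4g2b over eif4g3a (difference 0.50) and of the eIF3 subunit e duplicates, eif3ea over eif3eb (−0.50), had adjusted p of 0.104 and 0.110. For eif4eb over eif4e1c the difference was −0.34 (exact p = 0.255, adjusted p = 0.341). The number of ratios that passed was 3 without W63 and 1 without D53. Reads with more than 1 alignment were not assigned to a gene, and the part of this in the ratios was not tested.

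**Figure D5:**
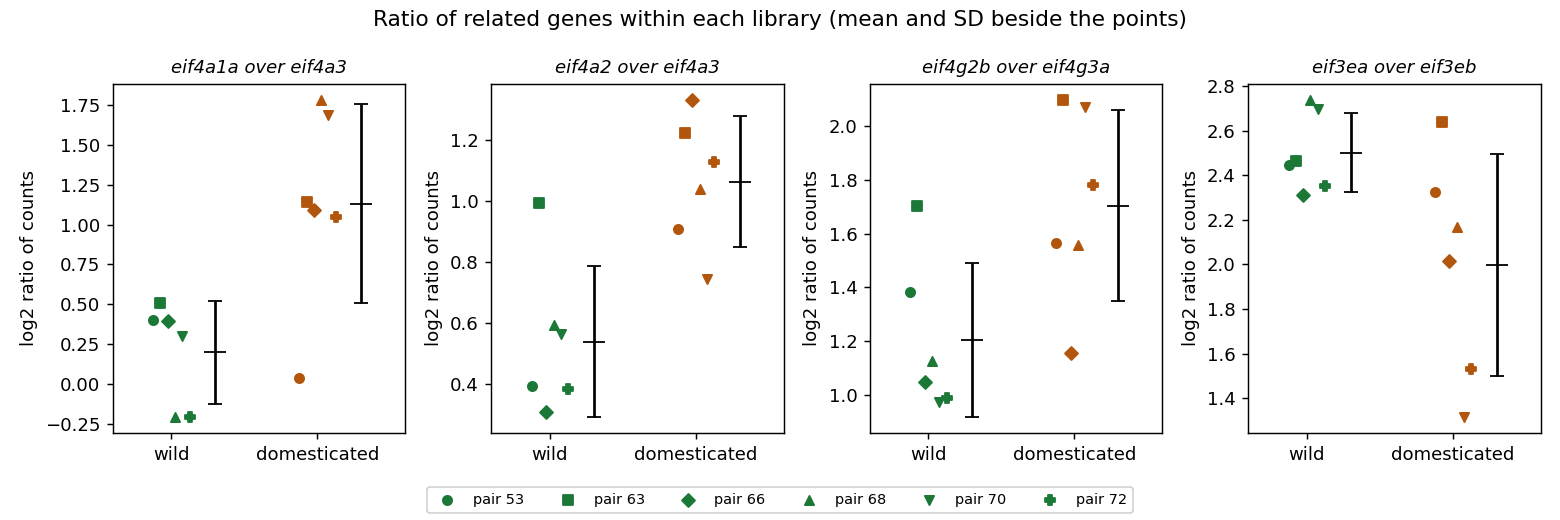
Log2 ratio of counts of related factor genes in each library (y axis) for the 4 ratios with an unadjusted exact p under 0.05, with the shape of a point marking the pair and the mean and SD of each group beside the points (n = 6). The groups overlap in every panel, and none passed after adjustment over 12 ratios.

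The untested genes differed from the tested ones in how many transcripts the annotation gives them. Of the 42 factor genes with 1 annotated transcript, 40 were tested, and of the 22 with more, only eif2ak1 and eif5a were. Among all genes 27.0% of those with 1 transcript and 6.17% of those with more were tested. The deposited counts are per transcript, and 9.23% to 16.2% of reads were set aside as ambiguous; the part of this in the missing genes was not tested. In a library, 3 counts correspond to 0.336 to 0.665 CPM, the limit that a count of 0 allows for counting error only, and the absence of counts for eif3d, eif3k or eif4g1a does not show that these genes are silent.

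Genes that act on these factors were read from lists of the pathways around them. Of the 77 genes found, 41 could be tested, and 8 of these were called, 4 higher and 4 lower (19.5%, against the 13.2% of all genes). The lists were chosen with earlier results of these data known, so the shares given for them are descriptions and not a test. Of 17 tested genes of the mTORC1 arm (32 found), 3 were lower in domesticated fish (against 6.5% of all genes) and none higher. They were ddit4 (124 ± 72.9 against 24.5 ± 18.8 CPM, log2 fold change −2.35, adjusted p = 0.0249) and sesn1 (24.1 ± 6.29 against 10.7 ± 4.75 CPM, −1.29, adjusted p = 0.0221), both for inhibitors of mTORC1, and rragcb (4.83 ± 1.19 against 2.40 ± 0.85 CPM, −1.03, adjusted p = 0.0434), for a Rag GTPase that recruits it. Among 7 tested genes (13 found) of the integrated stress response, which follows eIF2 alpha phosphorylation, trib3 was lower (50.3 ± 35.7 against 6.89 ± 7.43 CPM, −3.22, adjusted p = 0.00586). The other 6 were not called and lay on either side of 0. Their log2 fold changes were −0.62 for atf4b (adjusted p = 0.122), −0.74 for gcn1, −0.41 for ppp1r15b, −0.06 for chac1, 0.63 for impact and 0.70 for nupr1b.

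The other 3 lists held 4 calls among 17 tested genes, each higher in domesticated fish, against 6.69% of all genes called higher and 6.5% lower. Of 7 genes of termination, recycling and elongation control, mcts1, whose product works with DENR in reinitiation and recycling (19.8 ± 4.09 against 48.8 ± 10.7 CPM, log2 fold change 1.29, adjusted p = 0.00351), and pelo, for a ribosome rescue factor (8.90 ± 4.42 against 18.2 ± 5.78 CPM, 1.1, adjusted p = 0.0313), were called. Of 6 cap and poly(A) tail partners, lsm1, for a subunit of a ring that binds shortened messenger RNA tails, was higher (0.92, adjusted p = 0.0165). Of 4 genes for diphthamide and hypusine synthesis, dhps, for the enzyme of the first step that puts hypusine on eIF5A, was higher (0.97, adjusted p = 0.0242), while eif5a itself was not called.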

How the data were processed

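Fast muscle of 6 wild and 6 domesticated females was compared. For each library the authors deposited raw counts of reads by transcript, with no normalization. Trimmomatic 0.33, STAR and HTSeq are listed as tools by the submitters. Genome build of the counts: not given in the sources used here. Transcript counts were summed per gene (80392 transcripts, 42609 genes). Symbols came from a RefSeq table of the assembly O_niloticus_UMD_NMBU, which held 42607 of the genes. The 5 summary lines per library, of reads not assigned to a gene, were left out of totals. Their largest class, reads with more than 1 alignment, had 44.7% to 60.2%, and reads outside features 6.97% to 19.4%.

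Genes were tested (8425) when at least 6 libraries reached the CPM that 10 counts have in a library of median total. They also needed 15 counts in all. Log2 CPM with a pseudocount of 0.5 on TMM-scaled totals were compared with limma 3.58.1 (R 4.3.3; trend and robust estimation) and adjusted by the Benjamini-Hochberg method; fold changes understate those of low genes. No count model was fitted. The scaling and the test were tested on simulated data. The main fit had no block. The series pairs W and D fish by number: correlations of deviations within a pair were 0.209, 0.123, 0.0458, −0.101, −0.0888 and 0.0455 (pairs 53, 63, 66, 68, 70 and 72). The highest with another domesticated library, each the largest of several, were 0.188, 0.129, 0.147, 0.166, 0.249 and 0.186 in the same order. Over the factor genes alone the values within a pair were 0.344, 0.409, 0.377, −0.282, −0.0194 and 0.177. Replicates are separate fish. The SD values describe spread between fish, the SE values are limma's for the log2 fold change, and the floors cover counting error only.

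The members, lists and tests were chosen with earlier results of these data known. Full values are given for called genes and for the gene with the highest mean CPM of each complex. Alternatives changed the scaling, filter, pseudocount, weights, block or transcripts, or left out libraries. Paralog ratios and figures used SciPy 1.17.1 and matplotlib 3.10.9.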

Additional observations from a re-analysis of the deposited data

Results flagged for a closer look

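In 5 of the 42 genes 1 library stood far from the rest of its group, and in each it was D53, the highest of the 6 domesticated libraries. The gap to the next library was taken on log2 CPM, as a share of the group's whole range on that scale. Levels in CPM stand in brackets. The share was 0.642 for eif2a (99.2 CPM in D53 against 30.5 to 46.5 CPM in the other 5), 0.725 for eif2b5 (167 against 27.5 to 45.2 CPM) and 0.675 for eif3i (275 against 91.0 to 130 CPM). It was 0.629 for eif3m (145 against 58.6 to 82.1 CPM) and 0.713 for eif4ebp2 (52.4 against 28.1 to 33.6 CPM). The critical share for 6 libraries is 0.625, and chance alone passes it in about 1 in 20 groups. Over all genes tested, D53 stood apart in this way in 4.15% and all domesticated libraries together in 8.95%, against 11.9% of the factor genes. No factor gene had such a library among the wild fish, where 6.27% of all genes did.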

How the results depend on the processing

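With plain library totals the number of genes called fell from 1112 to 680, that of factor genes from 6 to 0, and the median log2 fold change of the factor genes moved from 0.04 to −0.36. The log2 fold change then reversed to −0.28 for eif2s3, −0.34 for eif4a2 and −0.20 for eif5a. Without a filter on low counts 786 of 31551 genes tested and 4 of 56 factor genes were called, and eif2b5 (0.016) and eef1a1l2 (0.031) reversed. A filter of 30 counts gave 921 of 5779 genes and 5 of 39 factor genes, with eef1akmt3 not tested. Leaving out 1 library at a time, with the filter set at 5 libraries, gave 628 to 1349 genes, 2 to 8 factor genes, and a median of −0.03 to 0.13. The number of genes was 668 without W66, 831 without W68, 696 without W70, 628 without D70 and 648 without D72. The 2 factor genes left without W68, W70, D70 or D72 were eif4e1c and eef1akmt3. The 8 without D53 added eef1e1, eif2a and eif4ebp3l and lacked eef1akmt2. The log2 fold change ranged from −0.50 to 0.079 for eif2b5, −0.061 to 0.19 for eif4a2 and −0.38 to 0.14 for eef1a1l2. The count of related-gene ratios that passed ranged from 0 to 3 (3 without W63, 1 without D53).

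With the replicate block, that is the pair as a term, 1062 genes and 6 factor genes were called; eif2s2 was lost, eif4g2a gained, and no other call of a factor gene changed. For the ratios an exact sign-flip test over the 6 pairs passed 0 of 12, with a lowest adjusted p of 0.188. With 6 pairs the smallest p this test can give passes the adjustment over 12 ratios only if most ratios reach it. Its outcome therefore says little about any single ratio. Leaving out both libraries of pair 53, an alternative chosen after seeing the data, gave 1113 genes and 5 factor genes, and eif4a2 (−0.036) and eef1a1l2 (0.18) reversed. The other scalings, pseudocounts of 2 and 5, precision weights and the top transcript of each gene kept the same 6 factor genes. The causes of these changes were not tested. Whether depth or the counting per transcript left 22 genes untested was not tested.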
